A study of Mus musculus with 27 samples.

Results

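Tph1, Slc18a1, Chga, Chgb, Tac1 and Ucn3 are 6 genes known from the serotonin-making enterochromaffin cells of the gut, and their levels were followed in mouse colon with and without the transcription factors Foxa1 and Foxa2. The 6 genes were taken by name from 35975 genes for which transcript counts could be summed. Whole tissue segments of 1 cm were sequenced as poly(A) RNA from 14 mice of mixed background aged 9 to 18 months, giving 27 libraries: 7 from proximal and 6 from distal colon of control mice, and 7 from each segment of deficient mice. The deficient mice, aged 9 to 13 months, carried Villin1-Cre, Foxa1lox/lox and Foxa2lox/lox. Of the 7 control mice, 5 were Foxa1lox/lox and Foxa2lox/lox with no Cre. Control replicate 1 carried Villin1-Cre with Foxa1lox/wt and Foxa2lox/wt, and control replicate 6 carried Villin1-Cre with Foxa1lox/lox and Foxa2lox/wt. All 14 mice therefore carried floxed alleles. Villin1-Cre acts in the intestinal epithelium, so nerve, muscle and immune cells of a segment were not its target. Controls were 9 to 18 months old and all labelled male, while deficient replicates 5 and 7 were labelled female.

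Enterochromaffin cells are the main source of serotonin in the body. Tryptophan hydroxylase 1 (Tph1) starts serotonin synthesis, aromatic amino acid decarboxylase (Ddc) completes it, and the vesicular monoamine transporter Slc18a1 loads it into dense-core granules, where the chromogranins Chga and Chgb are packed. Many of these cells also make the tachykinin precursor Tac1, the source of substance P, and some have been described to make the peptide urocortin 3 (Ucn3). Chromogranins are shared by other enteroendocrine cells, Tac1 and Chgb are also known from enteric neurons, and rodent mast cells can make serotonin with Tph1.

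Tph1 lies on the minus strand at chr7:46644641-46672537, Slc18a1 on the minus strand at chr8:69037711-69089235 and Ucn3 on the minus strand at chr13:3940688-3945349. Chga lies on the plus strand at chr12:102554969-102565028, Chgb on the plus strand at chr2:132781278-132795079 and Tac1 on the plus strand at chr6:7554879-7565834 (GRCm38, GENCODE M21). All 6 are protein-coding. Slc18a1 overlaps the annotated genes Atp6v1b2 and Gm15716, and the library kit named in the labels does not mark strand, so reads from shared bases cannot be told apart. The other 5 overlapped no annotated gene.

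The promoters of Tph1 and Chga are shown because both genes were low in deficient proximal colon, and each is the 250 bases before an annotated RefSeq start (GRCm38.p6). The near Tph1 start (chr7:46667377) lies inside the gene and is that of a long transcript. A short transcript begins at chr7:46667343 and is counted with the near start below. The far start (chr7:46672537) is that of a further long transcript. The windows are chr7:46667378-46667627 and chr7:46672538-46672787 on the minus strand and chr12:102554691-102554940 on the plus strand. Capitals mark a match to the cAMP response element, searched as TGACGT followed by any base and an A.
Tph1 near start: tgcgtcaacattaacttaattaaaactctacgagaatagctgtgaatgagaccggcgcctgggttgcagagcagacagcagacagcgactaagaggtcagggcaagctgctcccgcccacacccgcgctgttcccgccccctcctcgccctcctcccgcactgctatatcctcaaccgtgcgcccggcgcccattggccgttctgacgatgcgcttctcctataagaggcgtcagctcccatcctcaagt
Tph1 far start: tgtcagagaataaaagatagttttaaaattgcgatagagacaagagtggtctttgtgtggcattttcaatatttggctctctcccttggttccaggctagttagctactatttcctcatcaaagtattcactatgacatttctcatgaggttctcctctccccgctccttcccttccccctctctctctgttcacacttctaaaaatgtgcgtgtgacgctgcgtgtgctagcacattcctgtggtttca
Chga: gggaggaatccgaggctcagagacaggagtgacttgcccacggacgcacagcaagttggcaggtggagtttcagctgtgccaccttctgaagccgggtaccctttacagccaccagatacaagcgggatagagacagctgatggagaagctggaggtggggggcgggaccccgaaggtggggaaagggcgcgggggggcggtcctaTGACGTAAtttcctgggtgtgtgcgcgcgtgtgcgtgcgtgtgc

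These windows were searched on both strands for 4 forkhead forms, TGTTTAC with A also allowed as the second letter and G as the sixth, which were present in 11.9% of 32851 promoter windows of the same length. No such letters were in either Tph1 window or in the windows of Chga, Chgb and Tac1, and the Ucn3 window held 1, at 237 bases before its start. Slc18a1, also lower in deficient proximal colon, was neither shown nor searched, because the promoter set used held no entry for it. The cAMP response element was in 2.52% of the 32851 windows, and of the 5 members searched in Chga, 44 bases before its start, and in Chgb, 72 bases before its RefSeq start. The Chgb window lies within an exon of the one Chgb transcript counted here, so that match is downstream of the GENCODE start of the gene, and the Tac1 window also overlaps an annotated exon. A match or its absence describes these letters only and says nothing of binding. The Tac1 transcripts differ by 2 short coding exons, shown because the forms below are told apart by them. Exon 4 of the longest coding form (chr6:7557216-7557260, 45 bases) is absent from a second form, and exon 6 (chr6:7559099-7559152, 54 bases), known to encode neurokinin A, is absent from the third form.
Tac1 exon 4: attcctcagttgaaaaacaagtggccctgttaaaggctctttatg
Tac1 exon 6: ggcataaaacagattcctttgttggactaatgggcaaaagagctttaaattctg

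Library totals ran from 18472867 to 56744113 estimated counts, with a median of 40556273. Foxa1 was between 10.1 and 14.5 CPM (counts scaled to library size with TMM factors) in proximal deficient libraries, against 50.9 to 69.4 in 6 of the proximal controls and 13.9 in control replicate 6. Foxa2 was 1.23 to 1.75 CPM in proximal deficient and 6.05 to 15.7 in proximal control libraries, and 0.326 to 1.37 against 15.5 to 30.4 in distal colon. The low Foxa1 of control replicate 6 (7.60 CPM in distal colon) went with its genotype label. Deficient replicate 3 is labelled male, but the Y-linked gene Ddx3y was 0.0216 and 0.617 CPM in its proximal and distal libraries, against at least 33.3 CPM in every other library labelled male. In deficient replicates 5 and 7, labelled female, Ddx3y was 0.0614 to 0.295 CPM. Results without control replicate 6 or without deficient replicate 3 are given where they change the call of a member. Calls of genes other than the members were not checked without these mice.

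Tph1, the enzyme that commits tryptophan to serotonin, fell to a few percent of its control level in both segments. In proximal control colon Tph1 was between 11.2 and 37.9 CPM with a median of 22.2, and in proximal deficient colon between 0.273 and 1.30 CPM with a median of 0.557. In distal colon it was between 8.37 and 20.5 CPM with a median of 14.0 in controls, and between 0.130 and 0.656 CPM with a median of 0.323 in deficient libraries. Every deficient library lay below every control library of its segment. The lowest proximal control value of Tph1, and of Slc18a1 and Chga below, was that of control replicate 6, which had low Foxa1. In distal colon the lowest control value of each of these genes was that of control replicate 5, which carries no Cre. The deficient mean was 2.75% of the control mean in proximal and 2.44% in distal colon. The log2 fold change was -5.15 ± 0.36 (SE, 7 against 7 mice) in proximal colon, with an adjusted p of 3.03e-07, and -5.30 ± 0.36 (SE, 7 against 6 mice) in distal colon, with an adjusted p of 2.05e-06 (edgeR quasi-likelihood test, Benjamini-Hochberg adjustment over all genes tested). Tph1 had the lowest log2 fold change of 16787 genes tested in proximal colon, and the fifth lowest of 16041 in distal colon.

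The remaining Tph1 signal rested on few reads: 12 to 66 estimated counts per proximal deficient library and 2 to 22 per distal deficient library, with none at 0. On the deposited TPM scale, which corrects for transcript length, the distal deficient mean was 4.41% of control, and on the deposited log2 matrix the distal log2 fold change was -4.39. In a bulk segment, fewer serotonin cells and less Tph1 RNA per cell cannot be told apart. The difference between the segments in the genotype effect was -0.20 ± 0.39 (SE) on the log2 scale, with a 95% interval from -1.03 to 0.63 and an adjusted p of 0.882 (edgeR, mouse as a block). A difference between segments was therefore not detected for Tph1, within that interval.

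**Figure D1:**
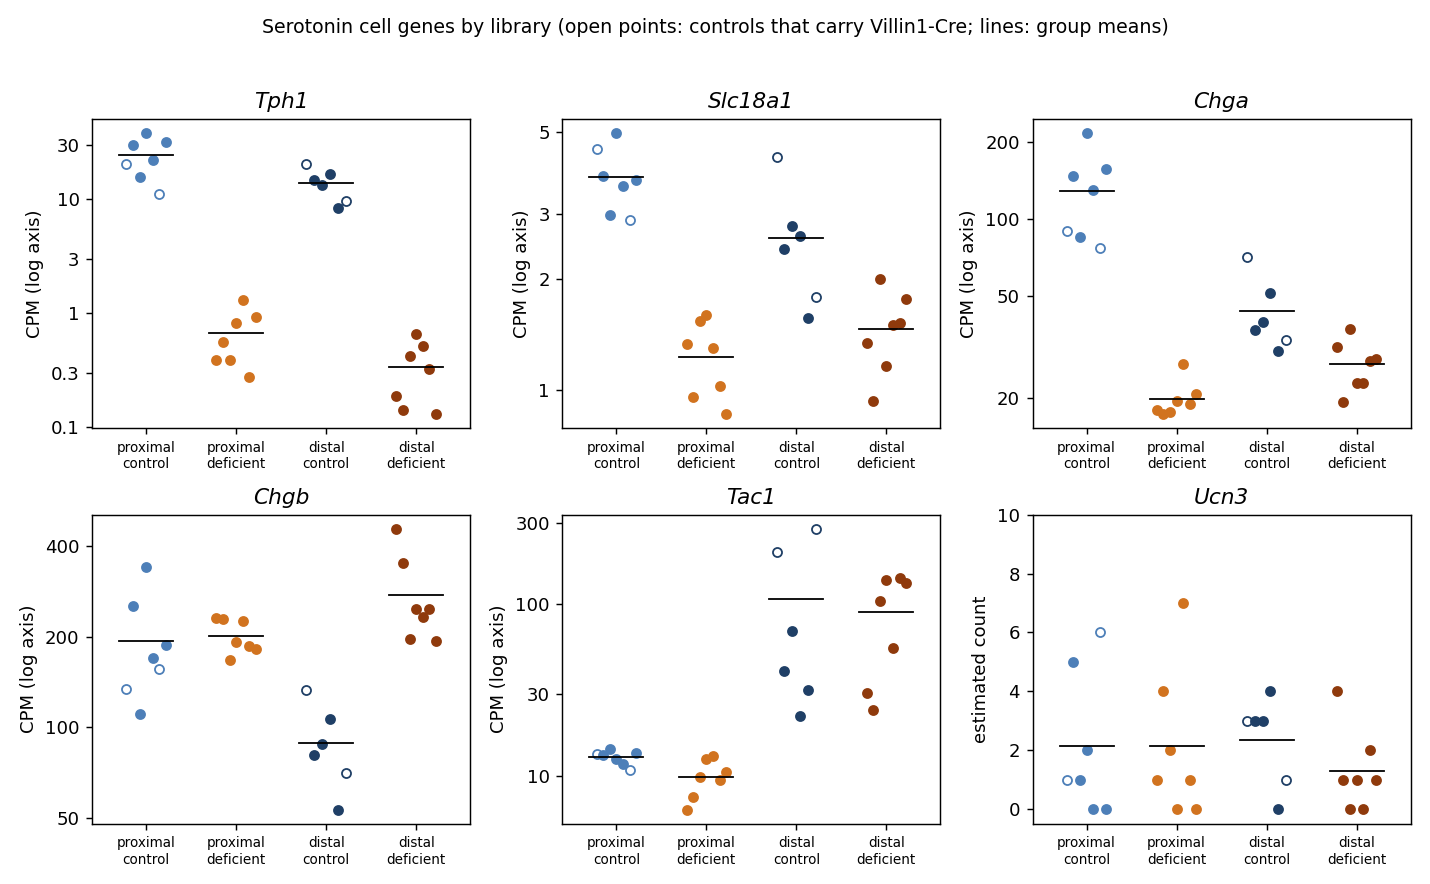
Each point is 1 library, by group, and black lines are group means. The y axes show CPM on a log scale, or for Ucn3 the estimated count on a linear scale. Open points are control mice that carry Villin1-Cre. Tph1 of deficient libraries lies at or below 1.30 CPM in both segments, Chgb of distal deficient libraries lies above all distal controls, and Ucn3 stays at or below 7 counts everywhere.

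In control colon, most Tph1 TPM was assigned to the near-start transcripts, 76.4% to 83.5% in proximal and 75.1% to 84.3% in distal libraries. The transcript from the far start held 8.81% to 16.5% in proximal and 15.2% to 21.5% in distal control libraries. It ends at chr7:46644641 and is 4562 bases long, while the long near-start transcript ends at chr7:46647130 and is 1762 bases long. These transcripts thus differ at both ends, and the shares do not measure start use alone. Between segments, the fragment-length setting given below cannot be told apart from the segment in these shares. Their estimated counts averaged 395 (far) and 681 (long near) in proximal controls, and 200 and 244 in distal controls. Both forms were low in the deficient mice: the mean of the long near-start transcript went from 12.1 to 0.311 TPM in proximal and from 5.35 to 0.139 TPM in distal colon, and that of the far-start transcript from 2.61 to 0.0622 TPM and from 1.50 to 0.0240 TPM. These transcript values were not tested. In deficient libraries the near-start share ran from 29.4% to 85.9% in proximal colon and from 0% to 97.4% in distal colon, a spread that rests on the few counts given above.

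Slc18a1, which carries serotonin into the granule, was lower in deficient proximal colon. Its CPM was between 2.88 and 4.97 in proximal controls, with a median of 3.71, and between 0.859 and 1.60 in proximal deficient libraries, with a median of 1.30, without overlap. The log2 fold change was -1.60 ± 0.18 (SE), with an adjusted p of 1.51e-05 (edgeR). In distal colon the values were 1.56 to 4.28 CPM with a median of 2.51 in controls and 0.931 to 1.99 CPM with a median of 1.50 in deficient libraries. These ranges overlapped, and 5 of 7 deficient libraries lay below the lowest control. The distal log2 fold change of -0.81 ± 0.25 (SE) had an adjusted p of 0.0701 (edgeR), and passed the threshold of 0.05 with DESeq2 (adjusted p of 0.0228), in mice of 9 to 13 months (0.0239) and without control replicate 5 (0.0387). The difference between segments was 0.84 with a 95% interval from 0.25 to 1.42 and an adjusted p of 0.214 (edgeR). This interval, like the others given here, was not adjusted for the number of genes tested.

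Chga fell in proximal colon, and its genotype effect differed between the segments. Proximal control libraries held 77.1 to 216 CPM of Chga with a median of 130, and proximal deficient libraries 17.4 to 27.1 CPM with a median of 19.0. Each deficient library was below each control library, and the deficient mean was 15.5% of the control mean. The log2 fold change was -2.67 ± 0.21 (SE), with an adjusted p of 6.83e-07 (edgeR). Distal control libraries held 30.6 to 70.9 CPM with a median of 38.2, and distal deficient libraries 19.3 to 37.3 CPM with a median of 28.0. In the distal segment 5 of 7 deficient libraries were below the lowest control, and the others fell among the controls.

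The distal log2 fold change of Chga was -0.68 ± 0.19 (SE), with an adjusted p of 0.0538 (edgeR), just outside the threshold. It passed with DESeq2 (adjusted p of 0.0163), in mice of 9 to 13 months (0.0243), and in edgeR fits without control replicate 5 (0.0336), control replicate 6 (0.0428) or deficient replicate 3 (0.0345). The effect in distal colon minus that in proximal colon was 1.91 ± 0.29 on the log2 scale (95% interval 1.29 to 2.53), with an adjusted p of 0.00509 (edgeR, mouse as a block, 13 mice).

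Chgb, the other chromogranin of the same granules, did not follow Chga. Proximal control libraries held 111 to 340 CPM with a median of 171, and proximal deficient libraries 167 to 231 CPM with a median of 192. The deficient range lay inside the control range, and the log2 fold change was 0.08 ± 0.20 (SE), with a 95% interval from -0.34 to 0.50 and an adjusted p of 0.869 (edgeR). Its sign changed to -0.06 with controls without Cre only, to -0.05 in mice of 9 to 13 months, and to -0.00023 and -0.03 without control replicates 1 and 3. In distal colon Chgb rose: controls held 53.2 to 133 CPM with a median of 84.5, and deficient libraries 194 to 458 CPM with a median of 247. No distal deficient library reached down to a control, and the deficient mean was 311% of the control mean.

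The distal log2 fold change of Chgb was 1.65 ± 0.24 (SE), with an adjusted p of 0.000854 (edgeR). The difference between segments was 1.49 ± 0.28 (95% interval 0.89 to 2.08), with an adjusted p of 0.0171, and an adjusted p of 0.0503 without control replicate 2 (edgeR, mouse as a block).

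Per transcript length, Chga and Chgb stood at similar levels in control colon. Chga TPM divided by Chgb TPM was 0.758 to 1.27 in proximal control libraries and 0.687 to 0.883 in distal control libraries. In deficient libraries the ratio was 0.119 to 0.184 in proximal colon and 0.0833 to 0.289 in distal colon. The ratio was therefore lower in every deficient library than in any control library of either segment. In proximal colon the lower ratio went with lower Chga (16.6 against 106 TPM on average) and in distal colon mostly with higher Chgb (131 against 38.7 TPM on average, beside 19.4 against 29.2 TPM for Chga). The ratio itself was not tested.

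**Figure D2:**
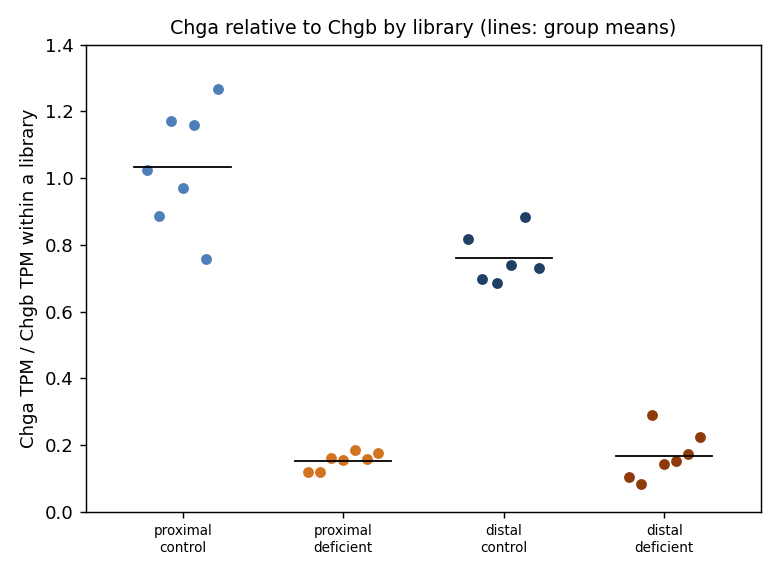
Chga TPM divided by Chgb TPM within each library (y axis, linear, from 0) for the 4 groups, with 1 point per library and lines at group means. Group means are 1.03 in control and 0.154 in deficient proximal libraries, and 0.759 in control and 0.167 in deficient distal libraries, and no deficient point reaches a control point.

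Tac1 encodes substance P and neurokinin A and passed no genotype test. In proximal colon its level was 10.8 to 14.4 CPM with a median of 13.2 in controls and 6.31 to 13.0 CPM with a median of 9.85 in deficient libraries. The ranges overlapped, although 5 of 7 deficient libraries were below the lowest control. The log2 fold change was -0.36 ± 0.14 (SE), with a 95% interval from -0.66 to -0.05 and an adjusted p of 0.133 (edgeR).

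Distal Tac1 varied more between mice than between genotypes. Control replicates 1 and 6, which carry Villin1-Cre, held 202 and 277 CPM, and control replicates 2 to 5 held 40.8, 70.2, 22.2 and 31.6 CPM. Deficient replicates 1 to 7 held 30.6, 24.1, 105, 139, 55.4, 143 and 134 CPM. The groups overlapped, with 2 of 6 controls above every deficient library and the other controls within or just below the deficient range. The log2 fold change was -0.24 ± 0.60 (SE), with a 95% interval from -1.53 to 1.05 and an adjusted p of 0.882 (edgeR), and its sign depended on the libraries: it was 0.03 without control replicate 1, 0.31 without control replicate 6 and 1.13 with only the controls without Cre, with an adjusted p of 0.313 in the last.

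The 3 main Tac1 forms differed in their shares. The form with all exons held 42.7% to 60.7% of Tac1 TPM in control and 49.8% to 58.8% in deficient proximal libraries, and 39.4% to 58.6% in control and 44.6% to 58.4% in deficient distal libraries. The form that skips exon 4, printed above, held 35.1% to 50.5%, 39.4% to 48.0%, 29.4% to 41.7% and 38.2% to 44.7% for the same groups in turn. The form that skips exon 6, with the neurokinin A sequence, held 0% to 12.7% in control and 0% to 6.39% in deficient proximal libraries, and 1.37% to 29.4% in control and up to 14.8% in deficient distal libraries, with means of 3.02%, 0.961%, 11.7% and 5.91%. Its highest share was in distal control replicate 4, and its median share was 0% in both proximal groups. Its estimated counts averaged 17.4 in control and 3.91 in deficient proximal libraries, and 225 and 206 in the distal groups. Among distal deficient libraries they ran from 0.00026 in replicate 7 to 695 in replicate 4, so the share of this form is uncertain. The fragment-length setting, given below, cannot be told apart from the segment in these shares either. The ranges of each form overlapped between genotypes in both segments, and the shares were not tested.

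Enteric neurons are another known source of Tac1 and Chgb, and a list of 17 neuron markers was followed beside them. The summed CPM of these markers was 63.9 to 116 in control and 55.3 to 99.5 in deficient proximal libraries, and 40.0 to 86.9 in control and 26.1 to 68.1 in deficient distal libraries, and no marker was at 0 throughout a group. None of the 17 passed the genotype test in either segment, and their median log2 fold change was -0.08 in proximal and -0.57 in distal colon, against 0.01 for all genes tested in each. In the distal deficient group, where Chgb was higher, the mean sum was 45.5 CPM against 68.5 CPM in controls. The 2 distal controls of highest Tac1 had neuron sums of 49.8 and 86.9 CPM, while the 3 deficient libraries of highest Tac1 had sums of 26.1 to 49.5 CPM. Of 12 epithelium markers 1 fell in proximal colon, where 6.17% of all genes tested fell, and none passed in distal colon. None of 9 smooth muscle markers passed in either segment. Smooth muscle sums were 1098 to 3425 CPM in distal controls and 478 to 1758 CPM in distal deficient libraries. The part of tissue composition in the distal Chgb and Tac1 values was not tested.

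**Figure D3:**
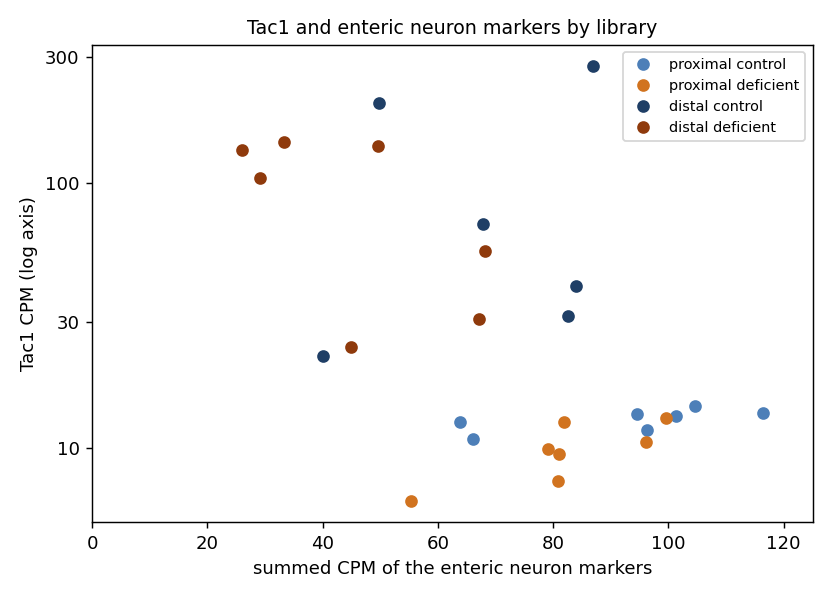
Tac1 CPM (y axis, log scale) against the summed CPM of 17 enteric neuron markers (x axis, linear), with 1 point per library coloured by group. Distal libraries lie between 22.2 and 277 CPM of Tac1, above all proximal libraries (6.31 to 14.4 CPM), at neuron marker sums that overlap with the proximal ones.

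Ucn3 was too low to compare. It had 0, 0, 1, 1, 2, 5 and 6 estimated counts in the 7 proximal control libraries, 0, 0, 1, 1, 2, 4 and 7 in the proximal deficient, 0, 1, 3, 3, 3 and 4 in the distal control and 0, 0, 1, 1, 1, 2 and 4 in the distal deficient libraries. All 4 groups overlapped fully. Ucn3 is not listed in either deposited matrix and did not pass the filter on low counts, so it has no test and a difference was not detectable at this depth. The other urocortin-related genes on the list (Ucn, Ucn2, Crh, Crhr1, Crhr2 and Crhbp) also did not pass the filter in any comparison, with at most 10 counts in a library.

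Of the 5 members tested in proximal colon, 3 passed the threshold, all lower (Tph1, Slc18a1 and Chga), where 11.7% of 16787 genes passed in either direction, 6.17% lower and 5.52% higher. In distal colon 2 of 5 passed, Tph1 lower and Chgb higher, where 6.07% of 16041 genes passed, 3.37% lower and 2.70% higher. The genotype effect differed between segments for 2 of 5, Chga and Chgb, both with the larger log2 value in distal colon, against 1.01% of 17595 genes in either direction, 0.432% in that direction and 0.580% in the other. Depending on the setting, 2 to 4 members passed in distal colon.

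**Figure D4:**
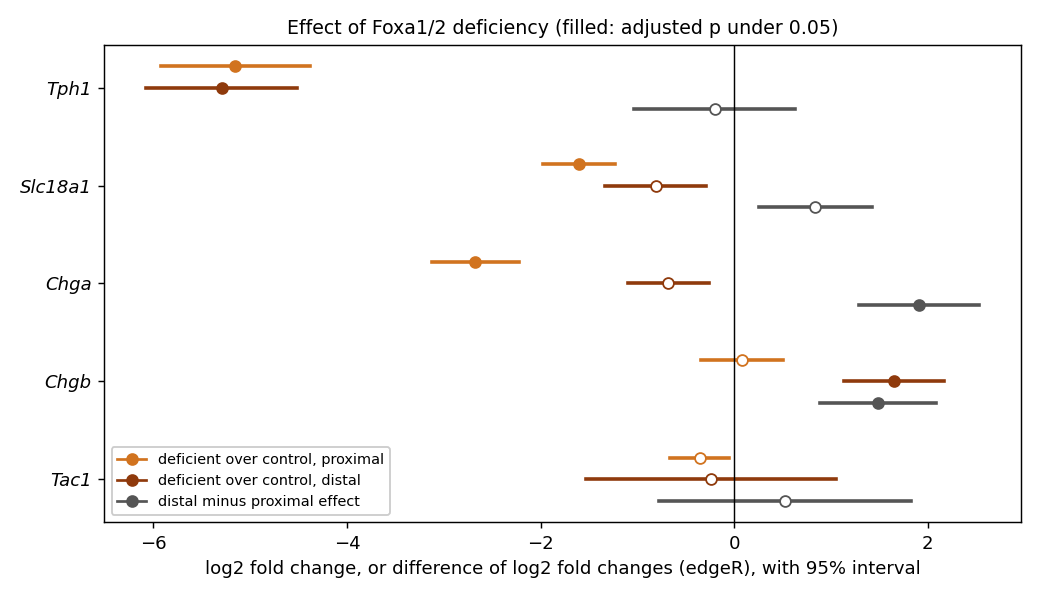
Log2 fold changes of the 5 tested members (x axis, deficient over control, edgeR) in proximal and distal colon, and the distal minus proximal difference, with 95% intervals as lines. Filled points passed an adjusted p of 0.05. Tph1 lies below -5 in both segments, the Chga point lies further below 0 in proximal than in distal colon, and Chgb is above 0 in distal colon with a proximal interval across 0.

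In whole tissue, the other genes of serotonin synthesis did not follow Tph1. Which cells of a segment gave the Ddc and cofactor gene values was not tested, so their levels in serotonin cells are not known. Ddc, which makes serotonin from the product of Tph1, was 31.8 to 53.9 CPM in proximal control and 30.4 to 49.2 CPM in proximal deficient libraries, with a log2 fold change of -0.01 (adjusted p of 0.978), and -0.14 in distal colon (0.784, edgeR). Among the 7 tested of 8 genes for synthesis and the tetrahydrobiopterin cofactor, Tph1 was the only one to pass in proximal colon, and Tph1 and Qdpr, which recycles the cofactor, passed in distal colon (Qdpr log2 fold change 0.39, adjusted p of 0.0258). The brain-type enzyme Tph2 had at most 7 counts in a library. Of the 6 storage genes, Slc18a1 alone passed in proximal colon and none in distal colon. Beside these lists and those that follow, 5.52% of all genes tested rose and 6.17% fell in proximal colon. In distal colon 2.70% rose and 3.37% fell. Slc18a2, the second vesicular transporter, known from neurons and mast cells, had log2 fold changes of 0.07 (0.824) and -0.13 (0.708).

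Genes of serotonin removal moved in both directions. The serotonin transporter Slc6a4, which takes serotonin up into epithelial cells, rose in proximal colon from 0.484 to 1.93 CPM in controls to 2.27 to 4.21 CPM in deficient libraries, with a log2 fold change of 1.17 (adjusted p of 0.00639), and had one of -0.17 in distal colon (0.882, edgeR). In proximal colon 2 of the 10 removal genes rose (Slc6a4 and the aldehyde dehydrogenase Aldh1a1, 0.54) and 3 fell, among them monoamine oxidase B (Maob, -0.84) and the serotonin-conjugating Ugt1a6a (-1.62). In distal colon 2 of 9 fell, Maob by 2.39 and Ugt1a6a by 2.99 on the log2 scale, and Sult1a1 rose (0.51). Ugt1a6a shares exons with other Ugt1a genes, so its counts are uncertain. Among receptors, 1 of 6 tested passed in proximal colon, Htr3b (1.61, adjusted p of 0.00206), and none of 4 in distal colon. No gene of the tachykinin list passed a genotype test in either segment, with 6 tested in proximal and 5 in distal colon.

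Most granule protein genes did not pass. Of 19 tested, Chga and Chgb included, 5 fell, none rose and 14 were not called in proximal colon, where Ptprn2 (-2.12), the prohormone convertase Pcsk1 (-1.07) and Ptprn (-0.84) accompanied Chga. In distal colon 4 rose, 3 fell and 12 were not called: secretagogin Scgn (1.20) and Scg3 (0.97) rose with Chgb, and Ptprn2 fell (-1.40). The list's median log2 fold change was -0.05 in proximal and -0.10 in distal colon, near the 0.01 of all genes. Scg3 fell in proximal colon (-0.40) and rose in distal colon, and the difference of 1.33 had an adjusted p of 0.00694 (edgeR).

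Transcription factors of endocrine cells fell and rose side by side. Lmx1a, a factor known to drive Tph1 in enterochromaffin cells, fell in proximal colon from 0.750 to 1.73 CPM in controls to 0.0216 to 0.216 CPM in deficient libraries, with a log2 fold change of -3.44 (adjusted p of 2.89e-05, edgeR). In distal colon Lmx1a did not pass the filter: it was 0.261 to 1.38 CPM in controls and 0 to 0.209 CPM in deficient libraries, which did not overlap. Nkx2-2, which acts upstream of Lmx1a, fell in proximal colon (-1.24, adjusted p of 0.00203) and had a log2 fold change of 0.87 in distal colon (0.103). The difference between the segments for Nkx2-2 was 1.97, with an adjusted p of 0.0203 (edgeR). Fev, a further factor of the serotonin cell, had 0.14 in proximal colon (0.789) and rose in distal colon (0.90, adjusted p of 0.0474).

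Rfx6 (1.95 and 2.64), Pax6 (1.34 and 1.75), Neurod1 (1.56 and 1.63) and Insm1 (0.73 and 1.46), general factors of endocrine cells, rose in proximal and distal colon, while the secretory factors Gfi1 (-1.30 and -0.77) and Atoh1 (-0.97 and -0.61) fell in both. Over the list, 6 rose and 6 fell of 20 tested in proximal colon, and 6 rose and 2 fell of 17 in distal colon. Among all genes tested the shares were 5.52% and 6.17% in proximal colon, and 2.70% and 3.37% in distal colon. Of 16 genes for sensors and channels of enterochromaffin cells, 3 rose and 2 fell in proximal colon, and 2 of 14 fell in distal colon. The short-chain fatty acid receptor Ffar2 fell in both (-2.11 and -2.37). Hormones of other enteroendocrine cells also moved both ways, with 2 up and 4 down of 7 tested in proximal colon and 2 up and 2 down of 7 in distal colon.

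**Figure D5:**
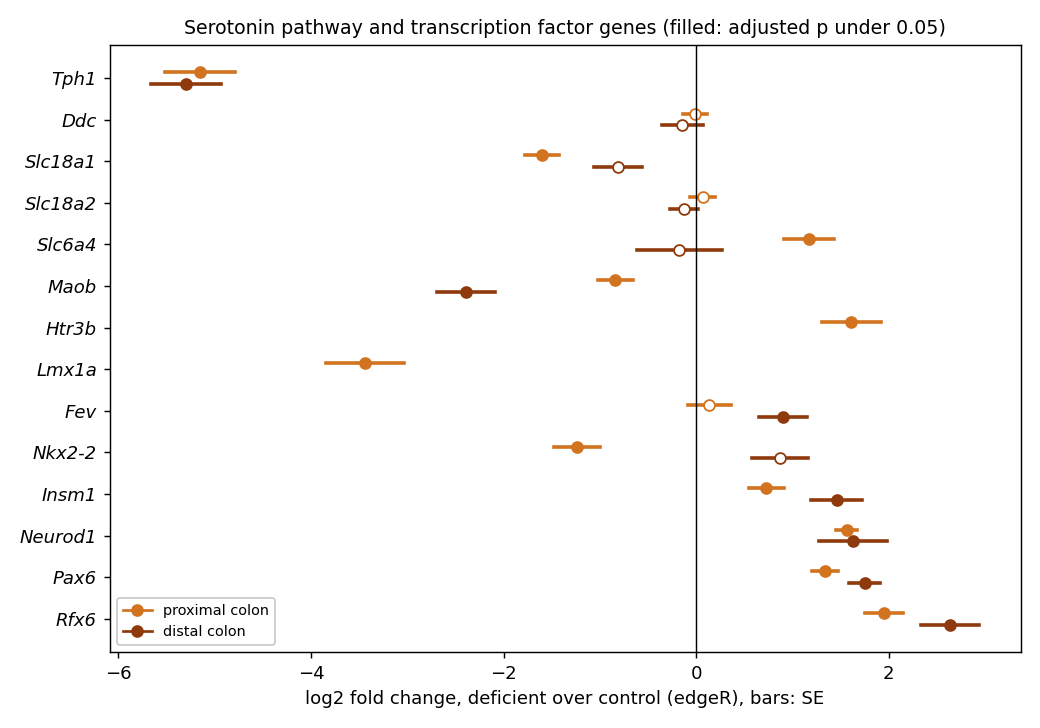
Log2 fold changes (x axis, deficient over control, edgeR) with standard errors as bars for serotonin pathway genes and transcription factors in proximal and distal colon. Filled points passed an adjusted p of 0.05, and Htr3b and Lmx1a were not tested in distal colon. Tph1 and Lmx1a lie far to the left, Ddc and Slc18a2 near 0, and Neurod1, Pax6 and Rfx6 to the right. The transcription factors shown were picked from a longer list, and Gfi1 and Atoh1, which fell in both segments, are not shown.

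Mast cell markers were followed because rodent mast cells can hold Tph1. In proximal colon 6 of 9 tested rose and Kit fell, and in distal colon 2 of 9 rose, where 5.52% and 2.70% of all genes tested rose. The sum of the 12 markers was 44.0 to 72.2 CPM in control and 32.5 to 52.3 CPM in deficient proximal libraries, and 29.2 to 70.4 CPM in control and 48.5 to 136 CPM in deficient distal libraries, with Kit, which is also found in pacemaker cells of the gut wall, as the highest marker in each group. Kit alone averaged 52.8 of 56.5 CPM in control and 26.2 of 39.6 CPM in deficient proximal colon, and 40.8 of 48.7 CPM and 36.0 of 72.2 CPM in distal colon. The median log2 fold change of the 9 tested markers was 2.58 in proximal and 1.08 in distal colon, against 0.01 for all genes tested. No marker was at 0 throughout a group. The part of mast cells in the remaining Tph1 was not tested.

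Between segments of the same mice, the members also differed in controls. Distal over proximal log2 fold changes in the 6 control mice with both segments were -0.67 for Tph1 (adjusted p of 0.0224), -0.60 for Slc18a1 (0.0291), -1.47 for Chga (0.000978), -1.09 for Chgb (0.00564) and 2.42 for Tac1 (0.00418, edgeR with mouse as a block). All 5 tested members therefore passed, where 43.8% of 16507 genes did, 21.5% higher and 22.3% lower in distal colon. The calls of Tph1 and Slc18a1 were lost without control replicate 2 (adjusted p of 0.0703 and 0.0789), replicate 4 (0.0682 and 0.0840) or replicate 5 (0.0657 and 0.0845), and that of Slc18a1 also without replicate 6 (0.0538). Both were also lost without the mouse as a block (0.0551 and 0.0775), and that of Slc18a1 with an offset for effective transcript length (-0.50, adjusted p of 0.114, edgeR). Chga of the controls did not overlap between segments, nor did Tac1, whose lowest distal control was 22.2 CPM and highest proximal control 14.4 CPM.

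In the 7 deficient mice Tac1 kept its distal excess, 2.94 (adjusted p of 5.69e-05), and 3 of 5 members passed where 45.1% of 16514 genes did, 22.7% higher and 22.4% lower in distal colon (edgeR with mouse as a block). Chga (0.43, adjusted p of 0.0391) and Chgb (0.39, 0.0279) were higher in distal than in proximal colon there, the other way round from the controls. The Chga call was lost without deficient replicate 1, 3, 4, 6 or 7 (adjusted p of 0.0923, 0.104, 0.0523, 0.0850 and 0.0706) and the Chgb call without replicate 1, 2, 4 or 6 (0.0602, 0.0719, 0.0531 and 0.0605). With the offset for effective length the Chga call was also lost (0.0538), and without the block that of Chgb (0.0507, edgeR). Tph1 had -0.90 (0.0634), and passed without deficient replicate 6 (0.0469). The deposited transcript lengths and effective lengths differed by 249 bases in all distal libraries and by 215 to 246 bases in proximal libraries, so the fragment-length setting and the segment cannot be told apart in these segment comparisons.

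Ordered by group means, Tph1 ran from 24.1 CPM in proximal control over 13.9 in distal control to 0.664 in proximal deficient and 0.338 in distal deficient colon, and only the step between distal control and proximal deficient had no overlap. Slc18a1 ran from 3.77 and 2.57 in proximal and distal control to 1.46 in distal deficient and 1.23 in proximal deficient colon, with overlap at each step. Chga ran from 129 in proximal control over 43.9 in distal control to 27.2 in distal deficient and 19.9 in proximal deficient colon, with no overlap at the first step alone. Chgb had its highest mean in distal deficient colon (276), then 202 in proximal deficient, 194 in proximal control and 88.7 in distal control colon, with overlap at each step. Tac1 ran from 107 in distal control and 90.1 in distal deficient to 12.8 in proximal control and 9.86 in proximal deficient colon, with no overlap between the segments.

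Across the 27 libraries, which share groups, mice and depth, the log2 CPM of Tph1 was most like that of Bace2 (Pearson r 0.970), Ephx4 (0.956) and Kcne3 (0.940) among 14251 genes. Slc18a1 and Chga were most like each other (0.919), each followed by Greb1l (0.876 and 0.918), with Tph1 (0.876) next for Slc18a1 and Insrr (0.892) for Chga. Chgb was most like Insm1 (0.821), Cdk6 (0.763) and Ttc9 (0.762), and Tac1 most like Casp14 (0.970), Fam124a (0.955) and Clca4c-ps (0.953). After the mean of each group was subtracted, Tph1 was most like Stxbp6 (0.795), Cfap20 (0.756) and Chga (0.749), and Tac1 again like Casp14 (0.925) and Fam124a (0.924), after Ces2f (0.933). Slc18a1 was then most like Ap5z1, Acpp and Gfm2 (0.707 to 0.729), Chga like Tph1, P2rx4 and Borcs5 (0.720 to 0.749) and Chgb like Krt87, Rps6ka5 and D630045J12Rik (0.735 to 0.792). Chga and Chgb had an r of -0.06 over all libraries and 0.61 within groups. These are descriptions of 27 libraries and carry no test.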

How the data were processed

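The authors deposited, per library, kallisto estimated counts and TPM per transcript, and per segment a log2 CPM matrix. The submitters' processing notes name bcl2fastq 2.20.0.422, cutadapt 2.5, kallisto 0.46.2, edgeR and GRCm38/mm10, and no source used here gives the matrices' normalization. Of 119414 transcripts, 116728 matched GENCODE M21, and the 2686 others held 0.902% to 1.269% of counts. Estimated counts were summed over 35975 genes and rounded. Tests used edgeR 4.0.16 (R 4.3.3) with filterByExpr, TMM scaling, the quasi-likelihood test and Benjamini-Hochberg adjustment over all genes tested, with a threshold of 0.05. Genotype was compared within each segment, and comparisons across segments used the mouse as a block, since both segments came from the same animal (correlation of deviations -0.150 to 0.494). Replicates are separate mice. CPM shown by library used one TMM scaling over 27 libraries. Each SE is the size of the log2 fold change divided by the square root of the F value of the edgeR test. Intervals are 95% and were built from these SE values for each gene alone. They were not adjusted for the number of genes tested, unlike the adjusted p values beside them. Likeness used log2(CPM + 0.5) of genes with a mean of at least 1 CPM. Alternatives used DESeq2 1.42.0, limma 3.58.1 on the deposited log2 CPM, other scaling, no filter, effective lengths, other mice, and leaving out each replicate. They covered the members and the number of genes called, and no other named gene. The fitting was also run on simulated counts, with an outcome that is not given here. These counts were drawn without a mouse effect, so that run did not cover the pairing of segments within a mouse. Named genes are the 6 members, Foxa1 and Foxa2, up to 4 genes of smallest p past the threshold per list and genotype comparison, Ddc, Slc18a2, Slc6a4, Lmx1a, Fev, Nkx2-2, and the 3 most alike genes per member; other genes (Scg3 in proximal colon, Insm1 and Neurod1 in both segments, Gfi1 and Atoh1 in both segments, Tph2, Ddx3y) were named after their values were seen. The members and all lists were chosen with earlier results of these data known.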

Additional observations from a re-analysis of the deposited data

Results flagged for a closer look

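Chga in proximal deficient replicate 5, a mouse labelled female, was 27.11 CPM, set apart from the next highest library of its group at 20.77 CPM by more than the usual limit for an outlying sample. Such gaps were looked for in 24 groups of values, and chance flags about 1 in 20. The library was still below every proximal control.

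The genotype effect on Chga differed between segments by 1.909 on the log2 scale (distal minus proximal), and that on Chgb by 1.488, both by the edgeR test of the difference itself with mouse as a block.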

How the results depend on the processing

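All 3 proximal member calls held in 23 alternatives, and the distal calls of Tph1 and Chgb in 22. The alternative with mice labelled male only kept deficient replicate 3, so no alternative left out all mice with almost no Ddx3y. The proximal log2 fold change of Chgb turned to -0.06325 with controls without Cre and to -0.05107 in mice of 9 to 13 months, and ran from -0.02708 to 0.266 with 1 replicate left out. That of distal Tac1 turned to 1.127 with controls without Cre, 0.1263 in mice of 9 to 13 months and 0.09429 with limma on the deposited values, and ran from -0.4507 to 0.3073 with 1 replicate left out. The segment difference of Tph1 turned to 0.5496 with effective lengths. DESeq2 called 1504 genes against 973 in distal colon and 528 against 178 for the segment difference, which ran from 102 (without control replicate 2) to 225 with 1 mouse left out and was 110 without deficient replicate 3. In distal colon 4 members passed with DESeq2 and in mice of 9 to 13 months, and 2 to 4 with 1 replicate left out. With 1 mouse left out, 1 to 2 members passed for the segment difference, 3 to 5 between segments in controls and 1 to 3 in deficient mice. Without the mouse as a block 3 passed between segments in controls, and Chgb between the segments of deficient mice had an edgeR adjusted p of 0.0507. With replicate numbers as a replicate block within a segment, 1696 genes passed in proximal and 689 in distal colon, with 3 and 2 members. These numbers do not pair different mice: the correlations ran from -0.141 to 0.330, and 1 of 7 proximal and 1 of 6 distal controls correlated best with its own number. The cause of these changes was not tested. Low counts limit Ucn3, Lmx1a in distal colon and the remaining Tph1.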
